A study of Mus musculus with 65 samples.

Results

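The regions described here are the wide dREG sites of a PRO-seq series in mouse erythroleukemia (MEL) cells. A dREG site is an interval that the dREG method recognised in run-on data as a transcribed promoter or enhancer. Members were the sites with the same identifier in the time course table and the A485 table and with an End minus Start of 1500 bp or more. The rule took 1877 of the 23877 shared sites, and the other 22000 are called narrower sites. It used width only, and no read count. Which libraries the sites were called from is not given in the sources used here, so width may not be independent of the treated libraries, and this was not tested.

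The cells carried Mtg16 fused to an FKBP degradation tag with 2 HA epitopes, so that every group, DMSO included, had the tagged protein. Groups are named here by agent. Degrader was 250 nM dTAGV1, a ligand that directs FKBP-tagged proteins to destruction. A485 was given at 10 µM and LBH589 (panobinostat) at 5 nM. The time course had degrader for 15 min, 30 min, 1 h and 2 h, washout for 30 min, 1 h and 2 h after 2 h of degrader, and DMSO. The A485 series had degrader, A485 and both agents, each for 15 min, 30 min and 1 h, and DMSO. The LBH589 series had LBH589 for 30 min and 1 h, and DMSO. The LBH589 washout series had 30 min and 1 h of washout after degrader and LBH589, with no DMSO libraries and no stated time of LBH589 addition. Groups held 3 libraries, except degrader 2 h, washout 1 h, A485 30 min and both agents 30 min with 2, and the 4 tables held 65 libraries. The labels do not say that replicates were separate cultures, so p-values measure the spread between these libraries, which may be technical. In the A485 series, DMSO, degrader and all 15 min groups carry replicate numbers 4 to 6. A485 and both agents at 30 min and 1 h carry numbers from 1. Whether these mark separate preparations is not stated. Any such difference cannot be told apart from A485 at those times. No group was washed without earlier degrader, so the effects of washing and of Mtg16 recovery cannot be told apart. Mtg16 protein was not measured in these files.

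Mtg16, encoded by Cbfa2t3, is a corepressor of the MTG family that binds DNA-bound factors in blood cells and recruits histone deacetylases through NCoR and SMRT complexes. A485 blocks the acetyltransferase activity of p300 and CBP, which acetylate histones at active enhancers, and LBH589 blocks histone deacetylases. PRO-seq maps RNA polymerases engaged in transcription, so active promoters and enhancers show as short runs of nascent RNA on both strands. A wide interval can hold a strong promoter, several adjacent initiation sites or a stretch of gene body, and width alone does not say which. No mm39 gene annotation was used here, so sites are given by mm39 coordinates without gene names.

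Each value is a DESeq2-normalised read count, and each library held 857558 to 7625202 reads in its table's dREG sites. Wide sites were well covered, with at most 12 of them at 0 in any library. Some libraries stood apart from their groups. In the time course, over the 2000 most variable sites, degrader 15 min replicate 2, degrader 30 min replicate 3 and washout 30 min replicate 3 correlated with the other libraries of their own group at mean r = -0.21, -0.25 and -0.22. The degrader 30 min library correlated best with the washout 30 min group (r = 0.39), and the washout 30 min library with the degrader 1 h group (r = 0.33). The wide site chr1:160869161-160871350 shows it. It had 1861, 2114 and 503 in degrader 30 min libraries 1 to 3 and 514, 741 and 2508 in washout 30 min libraries 1 to 3, so the third library of each group sat near the other group's level. Counts of calls in the time course are given with and without these 3 libraries. In the LBH589 washout series, washout 1 h replicate 3 correlated with its group at r = -0.15. In the A485 series, the A485 1 h libraries correlated with their group at r = 0.006, 0.11 and 0.08. The both agents 30 min libraries correlated with each other at r = 0.05. In the time course, 5 libraries (degrader 1 h and 2 h) are degrader by library name and A485 by title and treatment label. They are grouped by library name. In the gene table of the A485 series, 8 of 10 erythroid marker genes had values, with DMSO means from 6.32 normalised reads (Hbb-bs, a beta globin) to 2966 (Tal1, a blood transcription factor). Among markers of other blood cells the highest DMSO mean was 2695 (Itga2b, of megakaryocytes and progenitors).

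Wide sites had a median width of 1779 bp (quartiles 1619 and 2039 bp) and reached 5029 bp, against a median of 619 bp at narrower sites. They were 7.86% of the shared sites and 19.1% of the bases these cover. Widths of 1500 to 1749 bp took in 886 sites, 2000 to 2499 bp 359, 2500 to 2999 bp 93 and 3000 bp or more 54. The threshold lies in a continuous range. There were 51 members at the smallest width of 1509 bp and 42 shared sites at 1499 bp. Of the narrowest members, chr1:23865841-23867350 averaged 230.3 and chr1:39653231-39654740 35.8 in DMSO of the A485 series. Just outside, chr1:38815971-38817470 averaged 39.5 and chr1:92810251-92811750 30.0. Wide sites took between 6.71% (chromosome 14) and 9.07% (chromosome 16) of the shared sites of each chromosome other than Y, where 0 of 17 were wide. The nearest other shared site lay at a median gap of 6201 bp from a wide site and 3861 bp from a narrower one. A neighbour within 5 kb was present for 45.2% of wide and 54.4% of narrower sites.

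In DMSO cells, wide sites carried more nascent RNA than narrower sites, also per kb. In the A485 series the median wide site had 223 normalised reads and the median narrower site 33.1, a ratio of 6.75. The medians of the 3 DMSO libraries were 218, 223 and 228 at wide sites and 32.9, 33.4 and 33.3 at narrower sites, so the libraries did not overlap. The ratio was 6.39 in the time course and 6.10 in the LBH589 series. Per kb of site, the wide to narrower ratio was 2.09 in the A485 series, 1.99 in the time course and 1.89 in the LBH589 series. Basal signal varied widely among the members, and 90% of them lay between 35.8 and 1509 in DMSO of the A485 series. The highest, chr3:96154661-96157250, had 19359, 18836 and 20904 in the 3 DMSO libraries. Because signal and width go together, wide sites were also set against narrower sites of similar DMSO signal. For this, wide sites between the 5th and 95th percentile of their DMSO signal were divided into 5 bins, and narrower sites of the same bins were averaged with equal weight per bin. The spread between replicates was read in 5 bins made the same way from the mean of all libraries. The median SD of log2 values in the A485 series was 0.127 (highest bin) to 0.267 (lowest bin) at wide sites. At narrower sites it was 0.143 to 0.276 in the same order.

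Wide sites held 26.1% to 29.5% of all reads in shared sites, and this share was lower after A485, 1 h and 2 h of washout, and 1 h of LBH589. It was 27.6% ± 0.298 (SD, n = 3) with A485 for 1 h and 27.9% ± 0.235 (SD, n = 3) with both agents for 1 h, against 29.1% ± 0.359 (SD, n = 3) in DMSO, and the libraries did not overlap. With degrader alone for 1 h it was 29.0% ± 0.617 (SD, n = 3), which overlaps DMSO. LBH589 for 1 h gave 27.9% ± 0.297 (SD, n = 3), against 29.2% ± 0.130 (SD, n = 3) in DMSO. After 2 h of washout it was 26.7, 26.7 and 26.7%, against 28.7 and 29.2% in degrader 2 h and 28.4% ± 0.334 (SD, n = 3) in time course DMSO. The 2 washout 1 h libraries had 26.5 and 26.6%. The washout 30 min libraries had 26.7, 27.3 and 29.4%, on both sides of time course DMSO. The degrader 30 min libraries had 28.8, 28.7 and 26.6%. The third library of each of these groups is one that stood apart, so the share at 30 min of washout was not settled. The LBH589 washout 1 h libraries had 27.4, 27.5 and 26.1%, against 28.4, 28.8 and 28.8% after 30 min. These shares are weighted by the sites with most reads and carry no test. A 1 h change within 1 table shares its reference libraries with the other times of that table.

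**Figure D1:**
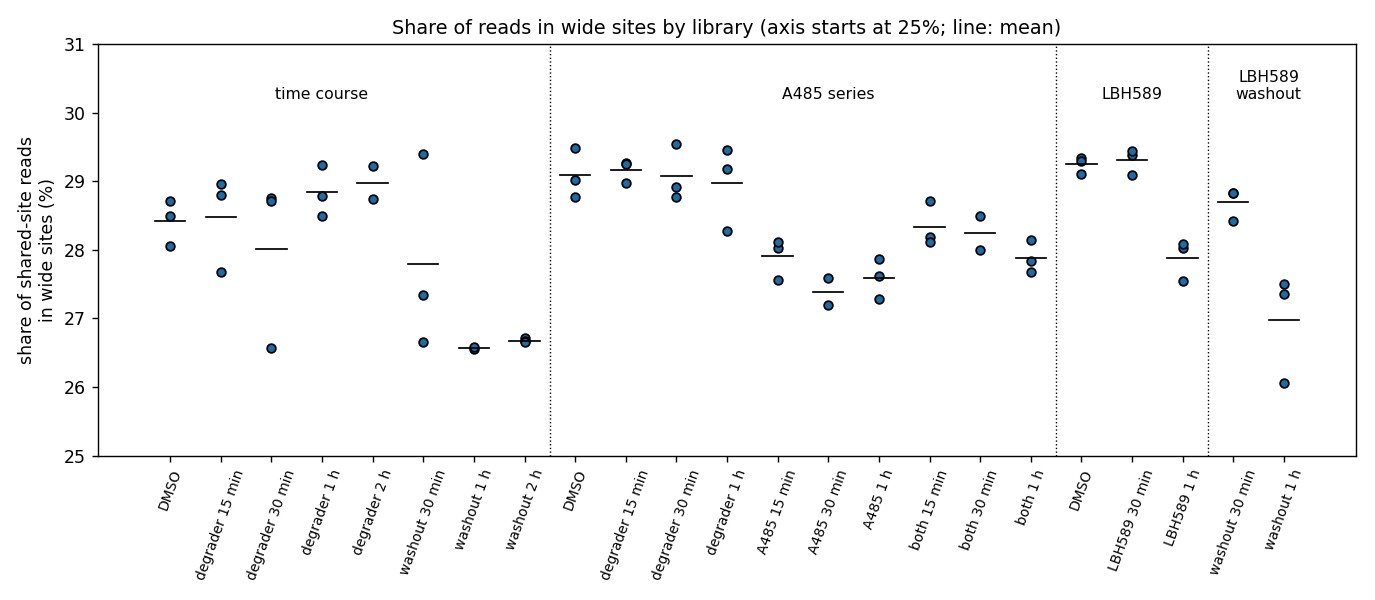
Share of the reads in shared dREG sites that fell in wide sites (y axis, percent) for each library (points) by group (x axis) in the 4 experiments, with the group mean as a line. The A485 1 h libraries lie at 27.3 to 27.9%, below the DMSO libraries at 28.8 to 29.5%.

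Degrader raised more wide sites than it lowered at each time of the A485 series. Differences were tested with limma across all sites of a table, with an adjusted p under 0.05 as the threshold. After 1 h of degrader, 619 wide sites were higher (33.0% of 1875, against 16.2% of all 21312 sites tested) and 305 were lower (16.3%, against 10.4%). The remaining 951 did not pass. The median log2 change was 0.17, against 0.01 over all sites tested. Among the members it ran between -2.35 and 2.98. Of the sites that passed, 158 had a log2 change of 1 or more and 6 had one of -1 or less. At 15 min there were already 262 higher (14.0%, against 4.21% of all sites) and 64 lower (3.41%, against 1.23%). At 30 min there were 364 higher (19.4%, against 7.37% of all sites) and 117 lower (6.24%, against 3.05%). The share called at 15 min, 17.4%, was 8.85% without DMSO replicate 4, 10.1% without degrader replicate 4 and 10.8% without degrader replicate 5, and at 30 min it was 25.7% with all libraries and 15.5% without DMSO replicate 4. The 3 times share the DMSO libraries.

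At similar DMSO signal the wide sites still stood higher than the narrower ones after degrader. At 1 h the median log2 change was 0.19 at wide sites and -0.06 at narrower sites, and 33.6% of wide and 16.3% of narrower sites were higher, and 14.9% of wide and 21.2% of narrower sites were lower. The difference between the medians stayed between 0.14 and 0.28 under other bins, other scaling and a threshold of 2000 bp. From the lowest to the highest bin, the wide medians were 0.52, 0.26, 0.15, 0.06 and -0.05, against -0.07, -0.05, -0.03, -0.04 and -0.14 at narrower sites. The gap was therefore largest among the less active sites and small in the top bin. At 15 min the medians were 0.12 at wide sites and -0.02 at narrower sites, and at 30 min 0.12 at wide sites and -0.05 at narrower sites. No p-value is given for these medians, since sites are not replicates.

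**Figure D2:**
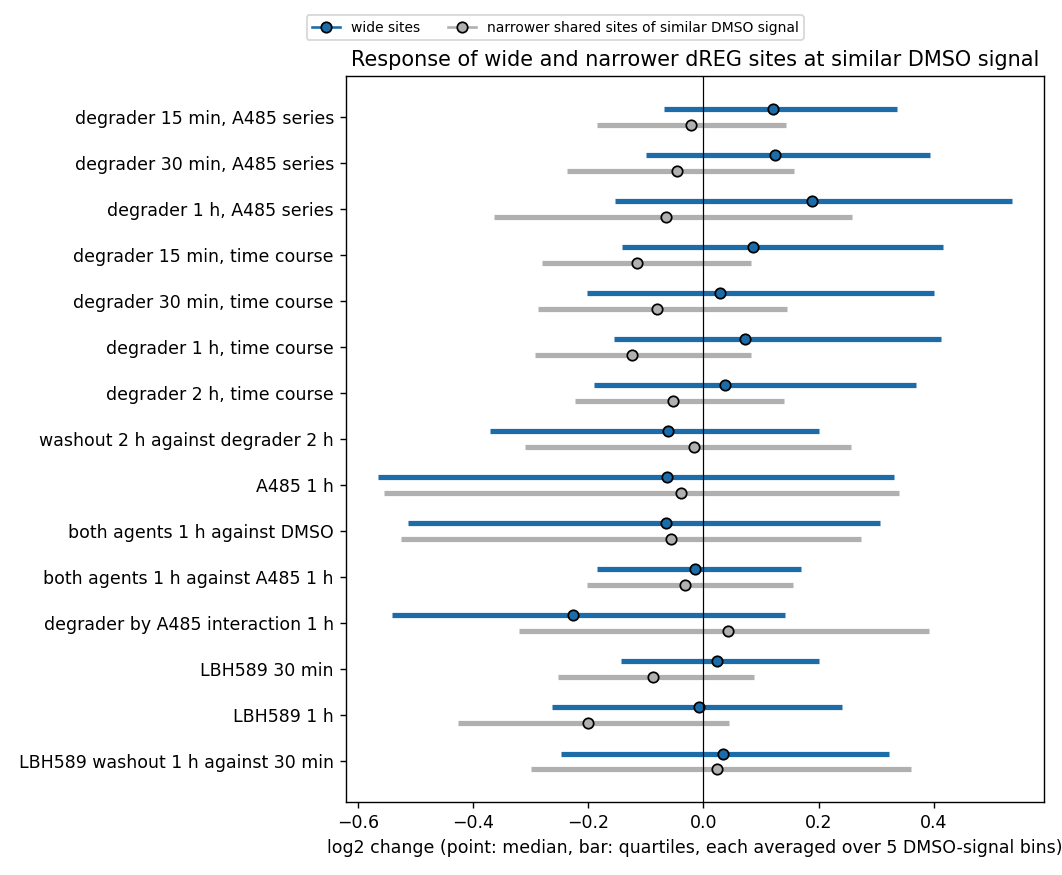
Log2 change (x axis) of wide sites and, below them, of narrower shared sites of similar DMSO signal for 15 comparisons (y axis). Points are medians and bars run between the quartiles, each averaged over 5 DMSO-signal bins. With degrader 1 h in the A485 series the wide median is 0.19 and the narrower median -0.06.

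Width and response were related on both sides of the threshold. With degrader for 1 h in the A485 series, 30.9% of sites of 1250 to 1499 bp were higher, so the members nearest the threshold, at 35.4% (1500 to 1749 bp), did not form a class of their own. The share lower was 10.5% at 1500 to 1749 bp, 22.6% at 2000 to 2499 bp and 57.4% at 3000 bp or more. Of these 54 widest sites, 7 were higher and 31 lower, with a median of -0.33. In the time course at 1 h, 4 of the 54 were higher (7.41%, against 12.3% of all sites) and 3 lower (5.56%, against 3.07%), with a median of -0.16. Without the 3 libraries that stood apart 6 were higher (against 15.9% of all sites) and 13 lower (against 8.30%). The difference between the experiments was not tested. LBH589 for 1 h gave 6 higher and 26 lower among them, and A485 for 1 h 7 higher and 17 lower. Width, signal and distance to other sites move together, and their separate parts were not tested.

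**Figure D3:**
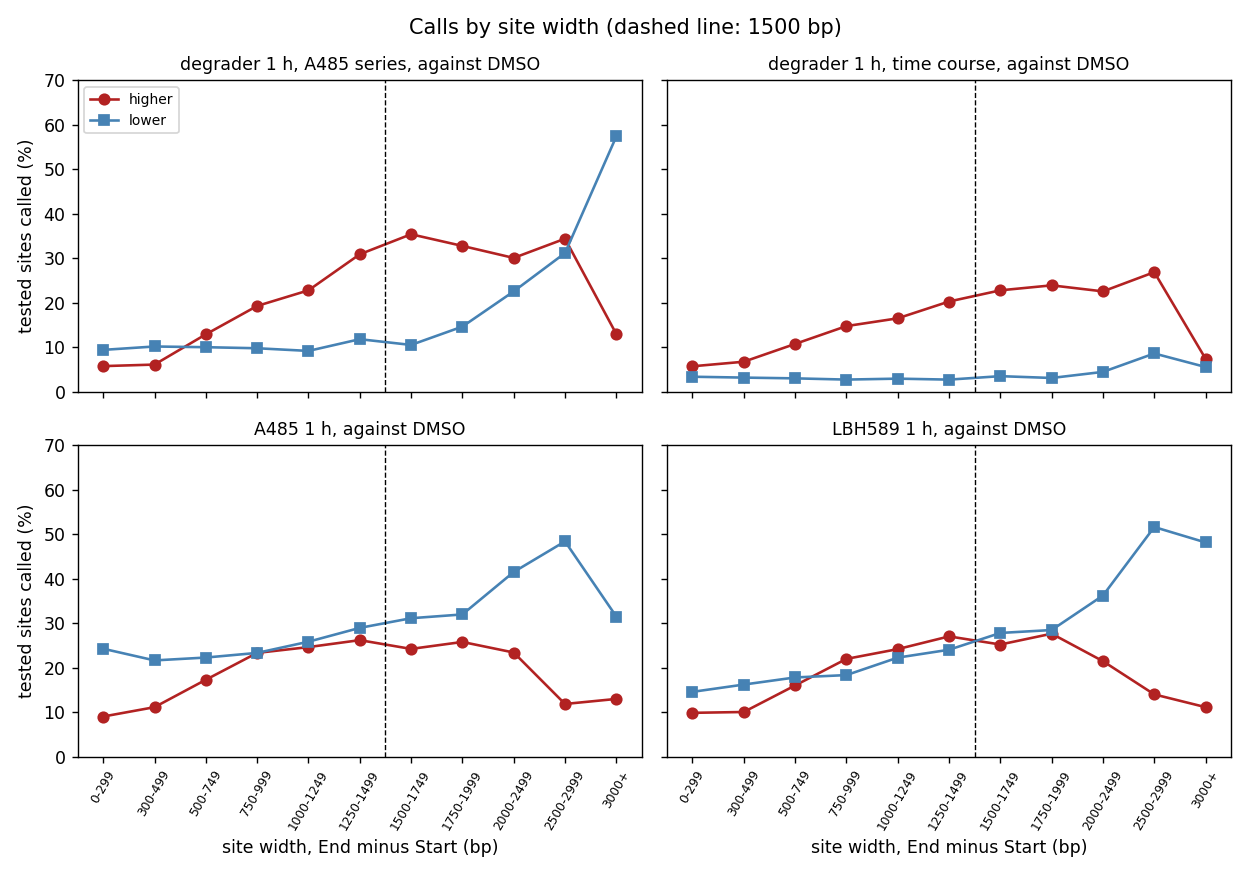
Percent of tested shared sites called higher (red circles) and lower (blue squares), by site width (x axis, bp), for 4 comparisons against DMSO. The dashed line is at 1500 bp. Sites of 3000 bp or more reach 57.4% lower with degrader in the A485 series.

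Among the members, those with little basal transcription per kb had the higher degrader response. Wide sites were divided into quintiles by DMSO signal per kb, taken from a different experiment than the one compared so that the DMSO noise was not shared. From the least to the most dense quintile, the median log2 change with degrader for 1 h was 0.51, 0.26, 0.18, 0.05 and -0.15 in the A485 series and 0.45, 0.12, 0.02, -0.07 and -0.12 in the time course. In the A485 series the least dense quintile had 163 of 375 sites higher and 7 lower, and the densest 56 higher and 148 lower. In the time course these were 161 higher and 3 lower of 376 in the least dense quintile, and 32 higher and 27 lower of 376 in the densest. Without the 3 libraries that stood apart the time course counts were 182 higher and 9 lower in the least dense quintile, and 49 higher and 93 lower in the densest. LBH589 for 1 h followed the same order, with medians of 0.24, 0.05, -0.06, -0.09 and -0.30. A485 for 1 h showed no such order, with medians of -0.06, -0.10, -0.12, -0.04 and -0.11.

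**Figure D4:**
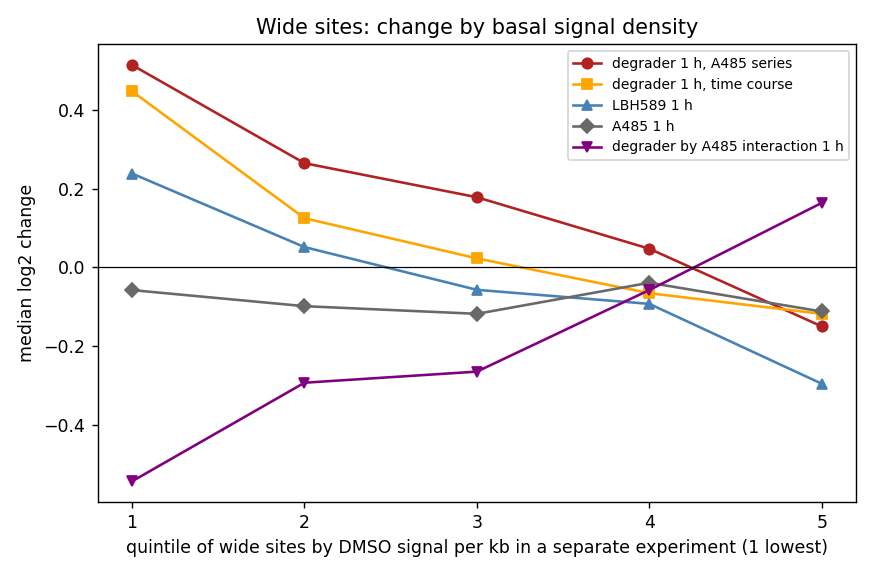
Median log2 change of wide sites (y axis) by quintile of DMSO signal per kb measured in a separate experiment (x axis, 1 lowest), for 5 comparisons. Both degrader lines fall with density, to -0.15 in the A485 series and -0.12 in the time course in quintile 5, while the A485 line stays between -0.12 and -0.04.

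The largest rise with degrader in the A485 series was at chr5:24127301-24129170. It had 1227, 1304 and 1179 in the degrader 1 h libraries, against 126, 180.1 and 167 in DMSO, a log2 change of 2.98 ± 0.14 (SE), adjusted p = 1.17e-17. Every degrader library was above every DMSO library, and the same held at 15 min (816, 825 and 828) and 30 min (1043, 1175 and 1000.1). A low basal level was shared by the next sites. The site chr7:79792651-79794320 had 235, 283 and 233 with degrader for 1 h, against 34.8, 31.1 and 35.3 in DMSO (log2 change 2.85 ± 0.22 (SE), adjusted p = 5.49e-12). The site chr16:32338321-32339850 had 220.3, 235 and 206 with degrader, against 35.7, 24.5 and 33.3 in DMSO (log2 change 2.80 ± 0.26 (SE), adjusted p = 2.43e-10). All 3 also rose in the time course at 2 h, by log2 3.16, 2.73 and 2.10, with adjusted p-values of 6.87e-14, 2.05e-10 and 1.18e-08.

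The largest falls were at sites with more basal signal. The site chr13:22012951-22015520 had 71.4, 59.3 and 81.2 with degrader for 1 h, against 432, 369 and 295 in DMSO (log2 change -2.35 ± 0.18 (SE), adjusted p = 4.80e-12). The site chr13:23720261-23722260 had 1088, 1039 and 683 with degrader, against 3699.8, 3562 and 3469 in DMSO (log2 change -1.96 ± 0.13 (SE), adjusted p = 6.12e-14). The site chr1:192429411-192431290 had a log2 change of -1.40 ± 0.17 (SE), adjusted p = 1.18e-07. In both chromosome 13 sites all degrader libraries lay below all DMSO libraries. In the time course the changes were smaller or did not pass the test. At chr13:22012951-22015520, degrader for 1 h gave 204, 176 and 241, against 344, 424 and 538 in time course DMSO, with a log2 change of -1.06 ± 0.28 (SE), adjusted p = 0.0103. At chr13:23720261-23722260 the time course change at 1 h was -0.85 ± 0.36 (SE), adjusted p = 0.116. At chr1:192429411-192431290, degrader for 1 h gave 1852, 2324 and 2199 in the time course, against 2001, 2688 and 1581 in DMSO, so the groups overlapped (log2 change 0.05 ± 0.23 (SE), adjusted p = 0.921).

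The time course, with its own DMSO libraries, also had more wide sites higher than lower at each time of degrader. At 15 min 423 wide sites were higher (22.5% of 1877, against 11.7% of all 23307 sites tested) and 36 were lower (1.92%, against 2.16%). At 30 min there were 413 higher (22.0%, against 12% of all sites) and 114 lower (6.07%, against 4%). At 1 h there were 428 higher (22.8%, against 12.3% of all sites) and 73 lower (3.89%, against 3.07%), and at 2 h 333 higher (17.7%, against 8.92% of all sites) and 48 lower (2.56%, against 1.58%). Without the 3 libraries that stood apart there were 543 higher (against 15.2% of all sites) and 224 lower (against 8.93%) at 15 min, 454 higher (against 13.01% of all sites) and 153 lower (against 4.88%) at 30 min, 525 higher (against 15.9% of all sites) and 224 lower (against 8.30%) at 1 h and 426 higher (against 12.7% of all sites) and 154 lower (against 4.75%) at 2 h. All groups of the table share one estimate of the spread. The share called at 2 h, 20.3% with all libraries, was 13.3% without degrader 2 h replicate 1 and 13.2% without replicate 2. At similar DMSO signal the 1 h medians were 0.07 at wide sites and -0.12 at narrower sites, and the 2 h medians 0.04 at wide sites and -0.05 at narrower sites. The 2 h difference was between 0.02 and 0.10 over the settings tried. For comparison across the experiments, 337 sites were higher with degrader for 1 h in both, which is 54.4% of the 619 of the A485 series and 78.7% of the 428 of the time course. Lower in both were 32 sites, 10.5% of 305 and 43.8% of 73. Without the 3 libraries, 393 were higher in both, 63.5% of 619 and 74.9% of 525, and 89 were lower in both, 29.2% of 305 and 39.7% of 224. Opposite calls were made at 1 site that was higher in the A485 series and at 0 that were lower there, and without the 3 libraries at 5 and 3 in that order.

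The 619 wide sites higher with degrader for 1 h in the A485 series were read in the time course, which took no part in choosing them. Their median log2 change there was 0.57, 0.49, 0.56 and 0.46 at 15 min, 30 min, 1 h and 2 h. In the time course the size at 15 min was thus close to that at the later times. The same medians over all 1877 wide sites were 0.05, 0.00, 0.03 and 0.01. The 305 sites lower in the A485 series had time course medians of -0.26, -0.23, -0.20 and -0.11. Without the 3 libraries the medians were 0.59, 0.48, 0.56 and 0.46 at the sites higher in the A485 series and -0.29, -0.14, -0.20 and -0.11 at the sites lower there. Read the other way, the sites higher with degrader for 1 h in the time course had medians that grew with time in the A485 series. These were 0.57, 0.68 and 0.82 at 15 min, 30 min and 1 h, with 211, 271 and 337 of 426 sites higher.

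Washout lowered more wide sites than it raised, relative to 2 h of degrader. After 2 h of washout, 126 wide sites were higher (6.71% of 1877, against 5.64% of all 23307 sites tested) and 255 were lower (13.6%, against 6.13%). The median log2 change was -0.06, against -0.00 over all sites tested. Scaling each library to its total gave 100 higher and 349 lower. With that scaling, at similar DMSO signal, 5.24% of wide and 3.92% of narrower sites were higher. Lower were 18.5% of wide and 15.0% of narrower sites. Leaving out 1 library at a time left 6.55% to 14.9% of wide sites called (the lowest without degrader 2 h replicate 2, then 6.98% without replicate 1 and 12.7% without washout replicate 2), against 20.3% with all (11.8% of all sites), and leaving out the 3 libraries that stood apart gave 272 higher (against 11.9% of all sites) and 455 lower (against 11.8%). At similar DMSO signal the medians were -0.06 at wide sites and -0.02 at narrower sites, and their difference changed sign with a threshold of 2000 bp. At 1 h of washout there were 57 higher (3.04%, against 2.45% of all sites) and 103 lower (5.49%, against 2.9%). Scaling to totals gave 38 higher and 147 lower, and leaving out any single library brought the calls to 0.0533% to 0.852% of wide sites, against 8.52% with all (5.35% of all sites). At 30 min limma called 0 wide sites in either direction, against 0.00429% of all sites, with 270 wide sites at an unadjusted p under 0.05. Without washout 30 min replicate 3 alone, 8.74% were called. Without the 3 libraries there were 209 higher (against 7.83% of all sites) and 303 lower (against 8.95%) at 30 min and 224 higher (against 9.68% of all sites) and 317 lower (against 9.62%) at 1 h.

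Levels after washout lay between those of degrader and DMSO at the median of the sites that degrader had raised. Of the 619 sites higher with degrader in the A485 series, 112 were lower and 36 higher after 2 h of washout than in degrader 2 h, with a median log2 change of -0.13. Against time course DMSO, 291 of them were still higher and 91 lower after washout, with a median of 0.36. Over all wide sites, washout 2 h against DMSO gave 464 higher (24.7%, against 17.6% of all sites) and 384 lower (20.5%, against 13%). With scaling to totals these were 368 higher and 555 lower, and without the 3 libraries 575 higher (against 22.8% of all sites) and 511 lower (against 18.01%). Of the 619 sites, 179 were then lower and 83 higher than in degrader 2 h, and 322 higher and 123 lower than in DMSO. The site chr5:24127301-24129170 had 659, 684 and 703 after 2 h of washout, against 1772 and 1723 in degrader 2 h (log2 change -1.36 ± 0.14 (SE), adjusted p = 4.86e-06). Its level in time course DMSO was 232, 165 and 191, so the washout libraries lay between DMSO and degrader.

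The largest rise after washout was at chr17:83997061-83998860. It had 378, 366 and 368 after 2 h of washout, against 66.1 and 85.4 in degrader 2 h and 80.3, 69.4 and 85.0 in DMSO. The log2 change against degrader 2 h was 2.29 ± 0.19 (SE), adjusted p = 2.74e-07, and washout stood above DMSO too. The site chr9:70834091-70835740 had 647, 702 and 974 after washout, against 249 and 178 in degrader 2 h (log2 change 1.85 ± 0.33 (SE), adjusted p = 8.16e-04). The largest fall was at chr1:160869161-160871350, with 617, 666 and 475 after washout, against 1809 and 2529 in degrader 2 h (log2 change -1.88 ± 0.46 (SE), adjusted p = 0.0098). That call was lost when either degrader 2 h library was left out. Its DMSO level was 2587, 2507 and 2560.3.

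A485 lowered more wide sites than it raised, at every time. With A485 for 15 min, 267 wide sites were higher (14.2% of 1875, against 11% of all 21312 sites tested) and 607 were lower (32.4%, against 16%). At 30 min there were 350 higher (18.7%, against 14.5% of all sites) and 583 lower (31.1%, against 18.3%), and at 1 h 441 higher (23.5%, against 18.9% of all sites) and 641 lower (34.2%, against 24%). The median log2 change at 1 h was -0.07, against -0.02 over all sites tested. The members ran between -3.92 and 1.82. Of the sites that passed, 278 had a log2 change of -1 or less and 61 had one of 1 or more. At similar DMSO signal the 1 h medians were -0.06 at wide sites and -0.04 at narrower sites, and 24.4% of wide and 23.8% of narrower sites were higher, and 33.7% of wide and 30.7% of narrower sites were lower. The difference lay between -0.17 and 0.02 over the settings tried, and its sign depended on the bins. At 15 min wide sites stood lower, with medians of -0.11 at wide sites and 0.01 at narrower sites and a difference between -0.22 and -0.12 over the settings tried. These comparisons share the DMSO libraries with those of the degrader, so their values are given side by side only.

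The largest falls with A485 for 1 h were at sites on chromosome 8 that lie close together. The site chr8:123034471-123036000 had 27.4, 16.9 and 27.7 with A485, against 382, 331 and 392 in DMSO (log2 change -3.92 ± 0.17 (SE), adjusted p = 8.74e-20). The site chr8:123046821-123048830 had 30.8, 39.4 and 34.6 with A485, against 470.1, 473 and 525 in DMSO (log2 change -3.78 ± 0.13 (SE), adjusted p = 1.00e-22). With degrader alone for 1 h they had 346, 304 and 371 and 549, 504 and 494 in that order. The site chr2:28495731-28498090 had 174, 114 and 137 with A485, against 1528, 1424 and 1588 in DMSO (log2 change -3.43 ± 0.11 (SE), adjusted p = 8.94e-24), and 2639, 2668 and 2743 with degrader. It thus moved in opposite directions with the 2 agents. Among the sites that rose, chr19:29651971-29653490 had 571, 743 and 784 with A485, against 219, 232 and 266 in DMSO (log2 change 1.54 ± 0.12 (SE), adjusted p = 1.26e-12), and chr7:35072121-35073730 had a log2 change of 1.53 ± 0.15 (SE), adjusted p = 8.26e-11.

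With both agents more wide sites were lower than higher at every time. Against DMSO, both agents for 15 min gave 240 higher (12.8%, against 9.6% of all sites) and 506 lower (27.0%, against 13.3%). At 30 min there were 320 higher (17.1%, against 13.2% of all sites) and 509 lower (27.1%, against 17.3%), and at 1 h 378 higher (20.2%, against 16% of all sites) and 585 lower (31.2%, against 20.1%). At similar DMSO signal the 1 h shares lower were close. From the lowest to the highest bin, 22.4, 31.7, 34.7, 33.3 and 34.2% of wide sites were lower. At narrower sites these were 24.5, 30.3, 30.6, 30.9 and 34.7%. The shares higher were 23.8, 17.6, 22.9, 22.7 and 18.1% at wide and 13.2, 17.8, 21.7, 23.7 and 20.3% at narrower sites. The difference of medians lay between -0.13 and 0.01 at 1 h over the settings tried. It was -0.19 to -0.10 at 15 min and -0.15 to -0.01 at 30 min. The degrader effect in the presence of A485, both agents against A485 alone, was called at few sites. At 15 min there were 49 higher (2.61%, against 0.633% of all sites) and 0 lower (0%, against 0.00938%). At 30 min there were 46 higher (2.45%, against 0.948% of all sites) and 5 lower (0.267%, against 0.469%), and at 1 h 123 higher (6.56%, against 3.98% of all sites) and 86 lower (4.59%, against 2.02%). Its median at 1 h was -0.02, against 0.01 over all sites tested. The share called moved with single libraries. At 1 h it was 11.1% with all libraries, 6.56% without both agents replicate 2 and 7.04% without replicate 3. Without A485 replicate 1 it was 12.5%. At 30 min it was 2.72% with all, 1.44% and 1.49% without A485 replicate 1 or 2, and 5.28% and 1.65% without both agents replicate 1 or 2. At 15 min it was 2.61% with all, 1.71% without A485 replicate 4 and 1.65% without both agents replicate 5.

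The difference between the degrader effect with and without A485 was tested as an interaction, where a negative value means a smaller or more negative degrader effect with A485. At 1 h, 160 wide sites were higher (8.53% of 1875, against 6.53% of all 21312 sites tested) and 397 were lower (21.2%, against 9.73%). The median was -0.19, against -0.00 over all sites tested. Scaling to totals gave 209 higher and 323 lower, with a wide median of -0.13, against 0.06 over all sites tested. The share of all sites called with totals is not given here. Leaving out 1 library at a time left 19.8% to 41.4% of wide sites called, against 29.7% with all (16.3% of all sites). The lowest was without DMSO replicate 4 and the highest without A485 replicate 1. At 30 min there were 66 higher (3.52%, against 1.64% of all sites) and 93 lower (4.96%, against 2.25%), and at 15 min 1 higher (0.0533%, against 0.0328% of all sites) and 5 lower (0.267%, against 0.0328%). The share called at 30 min was 8.48% with all libraries. It ran from 2.51% to 14.0%, lowest without A485 replicate 2 or both agents replicate 2 and highest without both agents replicate 1, and was 3.04% and 5.55% without DMSO replicate 4 or 5, 4.97% without degrader replicate 4 and 5.01% without A485 replicate 1. At 15 min it ran from 0% to 0.320%. At similar DMSO signal the 1 h medians were -0.23 at wide sites and 0.04 at narrower sites, with a difference between -0.31 and -0.14 over the settings tried. The densest quintile of wide sites had a median of 0.16 and the least dense -0.54.

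The wide sites called higher with degrader for 1 h in the time course give a view of this that does not use the A485 series to choose sites. Of these 428 sites, 426 were tested in the A485 series. Degrader alone for 1 h gave a median log2 change of 0.82 there, with 337 higher and 0 lower. Degrader on top of A485, in libraries separate from those of degrader and DMSO, gave a median of 0.27, with 108 higher and 4 lower. The interaction had a median of -0.54, with 155 lower and 6 higher. A485 alone lowered them, with a median of -0.72 and 269 of 426 lower, and both agents against DMSO gave -0.38. Chosen without the 3 libraries that stood apart, 523 sites had medians of 0.74 with degrader alone, 0.22 with degrader on top of A485 and -0.53 for the interaction. The 1 h libraries of the time course that chose them have conflicting labels. The sites they raised were mostly higher with degrader and lower with A485 in the A485 series.

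Named sites show the range. At chr5:24127301-24129170, degrader raised the level also on top of A485, to 248, 307 and 259 with both agents, against 58.2, 83.0 and 86.5 with A485 alone (log2 change 1.84 ± 0.14 (SE), adjusted p = 1.13e-11). The largest such rise was at chr8:123438901-123440730, with 127, 134 and 146 with both agents, against 30.8, 9.85 and 27.7 with A485 alone (log2 change 2.67 ± 0.20 (SE), adjusted p = 9.59e-12). Degrader alone gave 905, 967 and 822 there, against 196, 175 and 180.4 in DMSO. At chr2:28495731-28498090 both agents gave 502, 495 and 546, against 174, 114 and 137 with A485 alone (log2 change 1.87 ± 0.11 (SE), adjusted p = 7.99e-15). The largest fall against DMSO was at chr9:14097281-14099090, with 33.6, 27.2 and 21.1 with both agents, against 516, 509 and 593 in DMSO (log2 change -4.28 ± 0.18 (SE), adjusted p = 4.59e-20). A485 alone gave 58.2, 42.2 and 69.2 and degrader alone 229, 303 and 224 there. At chr15:66696431-66698050, degrader gave 113, 98.6 and 127 without A485, against 17.4, 22.2 and 18.6 in DMSO. With A485 it gave 28.3, 27.2 and 6.25, against 17.1, 21.1 and 8.65 with A485 alone, and the interaction was -2.27 ± 0.55 (SE), adjusted p = 0.0043. The largest positive interactions were at the 3 sites with the largest degrader falls, and share those degrader and DMSO libraries. At chr13:22012951-22015520 both agents gave 178, 147 and 145, against 185, 134 and 137 with A485 alone, so the groups overlapped (interaction 2.41 ± 0.26 (SE), adjusted p = 6.22e-08).

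**Figure D5:**
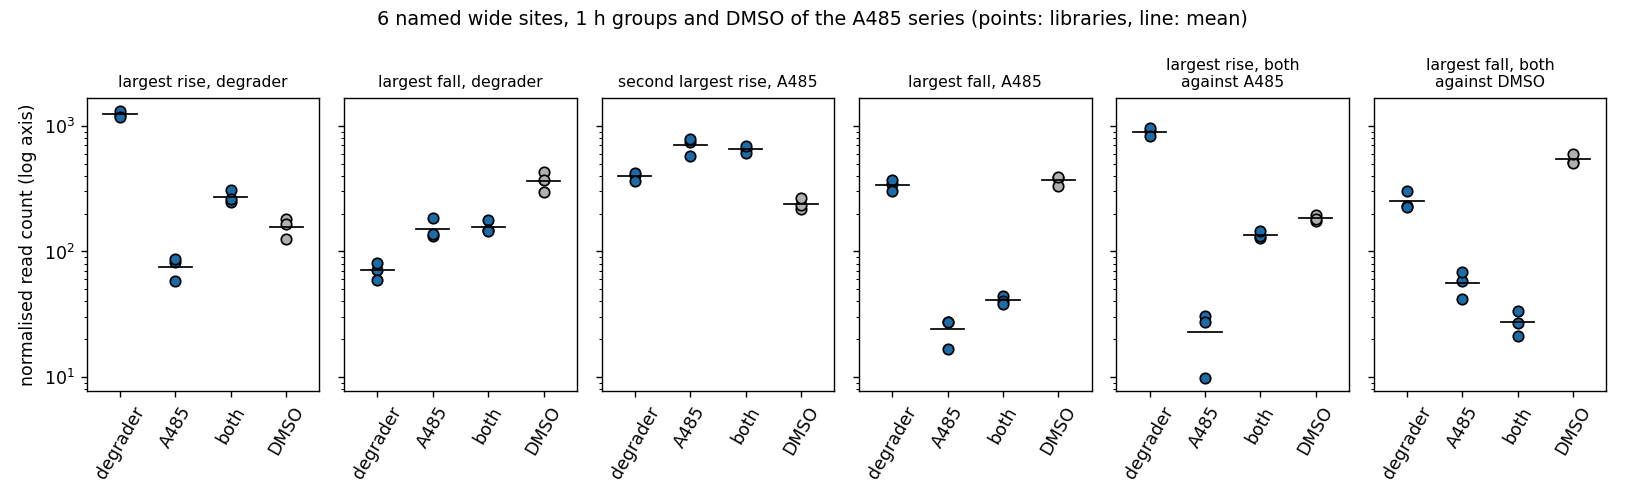
Normalised read counts (y axis, log scale) of 6 named wide sites in the 1 h libraries of degrader, A485 and both agents and in DMSO of the A485 series (x axis). Points are libraries and lines are group means. From left to right the sites are chr5:24127301-24129170, chr13:22012951-22015520, chr19:29651971-29653490, chr8:123034471-123036000, chr8:123438901-123440730 and chr9:14097281-14099090. In the first, degrader libraries lie at 1179 to 1304, above all others.

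LBH589 changed wide sites in both directions. With LBH589 for 30 min, 314 wide sites were higher (16.7% of 1876, against 9.34% of all 22740 sites tested) and 293 were lower (15.6%, against 8.93%). At 1 h there were 453 higher (24.1%, against 17.4% of all sites) and 588 lower (31.3%, against 19%). Which direction led depended on the scaling. With libraries scaled to their totals there were 740 higher and 328 lower at 1 h and 456 higher and 190 lower at 30 min. The share of all sites called with totals is not given here. At 30 min the median with totals was 0.07 over all sites and 0.09 over wide sites. At 1 h the median of all sites moved to 0.18 with totals, against -0.01 with the authors' scaling. Relative to that shift, the wide median at 1 h was -0.05, against -0.01 over all sites with the authors' scaling, and 0.15, against 0.18, with totals. At similar DMSO signal the 1 h medians were -0.01 at wide sites and -0.20 at narrower sites, and 23.9% of wide and 10.7% of narrower sites were higher, and 30.6% of wide and 43.5% of narrower sites were lower. The difference lay between 0.11 and 0.19 over the settings tried.

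Calls with degrader and with LBH589, measured against separate DMSO libraries, were set side by side, and their overlap was not tested. Of the 619 wide sites higher with degrader for 1 h in the A485 series, 209 (33.8%) were higher and 138 (22.3%) lower with LBH589 for 1 h. The 209 were 46.1% of the 453 sites higher with LBH589. Of the 305 lower with degrader, 151 (49.5%) were lower with LBH589, which is 25.7% of its 588. The 427 sites raised in the time course and tested here split into 115 (26.9% of the 428 called) higher and 110 (25.7%) lower with LBH589. These shares stand beside the 24.1% higher and 31.3% lower over all wide sites. With LBH589 libraries scaled to their totals, 302 (48.8%) of the 619 sites were higher and 85 (13.7%) lower, 86 (28.2%) of the 305 were lower, and 177 of the sites raised in the time course were higher and 71 lower. Over all wide sites these were 39.4% higher and 17.5% lower.

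The largest rise with LBH589 was at chr10:40401401-40403130, with 88.9, 79.2 and 98.8 at 1 h, against 22.3, 23.9 and 21.3 in DMSO (log2 change 1.93 ± 0.19 (SE), adjusted p = 1.96e-11). With degrader for 1 h it had 40.1, 32.3 and 30.7, against 27.4, 34.5 and 25.5 in DMSO of the A485 series. The largest fall was at chr2:27888371-27890100, with 28.5, 24.6 and 28.0 at 1 h, against 113, 78.5 and 105 in DMSO (log2 change -1.82 ± 0.19 (SE), adjusted p = 6.54e-11). The chromosome 8 site chr8:123046821-123048830, which fell with A485, also fell with LBH589, with 397, 473 and 384 at 1 h, against 1434, 1344 and 1219 in DMSO (log2 change -1.67 ± 0.09 (SE), adjusted p = 1.70e-20). The site chr9:14097281-14099090 fell with LBH589 as well (log2 change -1.71 ± 0.09 (SE), adjusted p = 4.02e-20). In each of these the treated and DMSO libraries did not overlap.

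In the LBH589 washout series, 1 h of washout was set against 30 min. Of 1853 wide sites tested, 62 were higher (3.35%, against 2.83% of all 17435 sites tested) and 74 lower (3.99%, against 2.7%). Scaling to totals gave 47 higher and 93 lower, with a wide median of -0.04, against -0.08 over all sites tested. The share of all sites called with totals is not given here. The share called was 7.34% (5.53% of all sites). It depended on single libraries and ran from 0.108% to 18.4% as 1 library at a time was left out, the highest without washout 1 h replicate 3. Sites of similar signal were compared in bins of DMSO from the LBH589 series. From the lowest to the highest bin, 3.96, 2.97, 2.96, 3.78 and 3.24% of wide sites were higher. At narrower sites these were 2.08, 4.65, 5.62, 5.44 and 3.83%. The shares lower were 1.44, 2.70, 3.23, 5.95 and 6.12% at wide and 2.14, 3.40, 2.96, 3.89 and 7.89% at narrower sites. At chr8:123046821-123048830, washout 1 h gave 128, 119 and 194, against 581, 549.6 and 497 at 30 min (log2 change -1.91 ± 0.20 (SE), adjusted p = 9.57e-04). At chr8:123034471-123036000 it gave 104, 85.3 and 190.3, against 403, 411 and 436 at 30 min (log2 change -1.80 ± 0.25 (SE), adjusted p = 0.0052). In limma without the filter on low sites, both chromosome 8 calls were lost (adjusted p = 0.125 for each). The call at chr8:123034471-123036000 was also lost without washout 30 min replicate 2 or 3. The largest rise, at chr1:72907841-72909430, had 23.4, 17.3 and 38.7 at 1 h, against 6.09, 11.9 and 5.47 at 30 min (log2 change 1.63 ± 0.44 (SE), adjusted p = 0.0468), and its call was lost under most alternatives. This series has no DMSO libraries, so no level here is set against untreated cells.

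The 5 widest sites differed in direction, and 4 of them fell with degrader in the A485 series. The widest, chr1:58445011-58450040, had 1913, 1804 and 1959.8 with degrader for 1 h, against 2867, 2703 and 2652 in DMSO (log2 change -0.53 ± 0.09 (SE), adjusted p = 4.21e-05). With both agents it had 2942, 2873 and 2985, above all DMSO libraries. The second, chr2:75500441-75505340, had 2772, 2672 and 2772 with degrader, against 4487, 4139 and 4206 in DMSO (log2 change -0.64 ± 0.09 (SE), adjusted p = 7.85e-07). The sites chr10:79805981-79810760 and chr1:36733971-36738230 had log2 changes of -0.54 and -0.44 with adjusted p-values of 2.90e-04 and 3.55e-04. The fifth, chr12:112582981-112587240, had a log2 change of 0.24 ± 0.09 (SE), adjusted p = 0.0336. In the time course at 1 h the 5 sites had log2 changes of -0.41, -0.19, -0.07, -0.27 and -0.05, and adjusted p-values of 0.133, 0.481, 0.794, 0.154 and 0.818. The site with the highest DMSO signal, chr3:96154661-96157250, had 9435, 9075 and 8039 with degrader for 1 h, against 19359, 18836 and 20904 in DMSO (log2 change -1.16 ± 0.09 (SE), adjusted p = 6.83e-12). It had 18543, 23066 and 20763 with LBH589 for 1 h, against 30815, 28982 and 31024 in DMSO of that series (log2 change -0.55 ± 0.07 (SE), adjusted p = 2.67e-09).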

How the data were processed

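Nascent RNA was measured by PRO-seq in 65 libraries of 23 groups. The deposited dREG tables hold a signal of at least 0, which per the labels is a count normalised with DESeq2 by the authors. Tools named in the submitters' processing notes include featureCounts 2.0.1, Bowtie2 2.2.2 and DESeq2 1.46.0, with builds dm3 and mm39. The sources used here do not give how sites were called, strand use or whether dm3 served in scaling. Such scaling hides a change shared by most sites.

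Sites with a mean of 10 or more were tested in limma 3.58.1 (R 4.3.3) on log2(value + 1), with all groups of a table in 1 fit and Benjamini-Hochberg adjustment over all sites tested. Fold changes on that scale understate low sites. Each value was a whole number of reads, within 0.1, after division by its library's step, in 100% of values, so that edgeR 4.0.16 could be run on recovered reads as an alternative. The script was tested on simulated data. No 2 libraries of the same group agreed within sampling noise. The check of replicate numbers found no 2 groups with 3 same-numbered pairs in which every pair correlated above 0.1, so the numbers were not used as pairs. In the time course, DMSO and degrader 15 min pairs had r = 0.09 to 0.11, against a mean of -0.05 for other pairs. For DMSO and degrader 1 h it was 0.04 to 0.09, against -0.04, and for DMSO and degrader 30 min -0.06 to -0.004. Degrader 15 min and 2 h, with only 2 pairs, had 0.11 and 0.18. Whether the time course was paired was thus not settled.

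Named sites were the 3 largest rises and falls in each of 9 main comparisons at adjusted p under 0.05, the 5 widest, the 5 highest in DMSO, and the sites nearest the threshold. The members and all lists were chosen with earlier results of these data known. Gene lists could not be applied to the sites without an mm39 annotation. Other scaling, filters, pseudocounts, bins, thresholds and left-out libraries were tried.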

Additional observations from a re-analysis of the deposited data

Results flagged for a closer look

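A degrader response that differed with and without A485 was called at 557 wide sites at 1 h by the interaction term. Among the named sites it was 2.41 (log2) at chr13:22012951-22015520, 1.90 at chr13:23720261-23722260 and 1.73 at chr1:192429411-192431290, and -2.83 at chr15:36360441-36362330, -2.27 at chr15:66696431-66698050 and -2.14 at chr6:38877111-38878720. At chr15:36360441-36362330 the counts were low, with 32.1, 33.1 and 22.0 with degrader for 1 h, against 8.23, 3.34 and 8.82 in DMSO, and 8.39, 2.79 and 0.781 with both agents, against 3.42, 7.04 and 8.65 with A485 alone. At chr6:38877111-38878720 they were 76.7, 67.2 and 58.0 with degrader, against 32.9, 44.5 and 37.3 in DMSO, and 10.5, 11.1 and 8.59 with both agents, against 27.4, 22.5 and 31.1 with A485 alone.

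At 4 named sites every degrader 1 h library of the time course moved one way from its DMSO mean and every degrader 1 h library of the A485 series moved the other way. The differences between the experiments were not tested. The log2 changes in the time course and the A485 series were 1.57 and -0.52 at chr2:27888371-27890100, -0.21 and 0.90 at chr7:35072121-35073730, 0.54 and -0.13 at chr15:66992491-66994100, and -0.0519 and 0.24 at chr12:112582981-112587240. At chr2:27888371-27890100 the time course had 109, 130.0 and 140.2 with degrader for 1 h, against 46.7, 40.2 and 38.8 in DMSO, and the A485 series had 83.9, 74.1 and 47.0 with degrader, against 88.7, 91.2 and 109 in DMSO. The time course libraries of this time are those with conflicting labels.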

How the results depend on the processing

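Values here are the percent of tested wide sites called, or, for medians, wide minus narrower sites on the log2 scale. The alternatives without the 3 libraries, with only the compared groups, with 10 bins, with bins from another experiment's DMSO, and every alternative outside the 9 main comparisons were chosen after the data were seen. Without the 3 time course libraries that stood apart the calls were 40.9% for degrader 15 min, time course, 30.9% for degrader 2 h, time course, 27.3% for washout 30 min against degrader 2 h, 28.8% for washout 1 h against degrader 2 h and 38.7% for washout 2 h against degrader 2 h. With the library number as a replicate block in a fit of the compared groups, the calls were 16.6% for degrader 30 min, time course, 45.4% for degrader 1 h, time course, 33.9% for washout 30 min against degrader 2 h, 34.0% for washout 1 h against degrader 2 h, 44.9% for washout 2 h against degrader 2 h, 32.1% for degrader 15 min, A485 series, 1.12% for degrader by A485 interaction 15 min, 1.19% for both agents 30 min against A485 30 min and 3.50% for both agents 1 h against A485 1 h. The same groups alone without a block gave 18.6% for degrader 30 min, time course, 34.6% for washout 1 h against degrader 2 h, 43.4% for washout 2 h against degrader 2 h, 34.9% for degrader 15 min, A485 series, 1.23% for degrader by A485 interaction 15 min, 0.754% for both agents 30 min against A485 30 min and 2.37% for both agents 1 h against A485 1 h. No 2 groups with 3 same-numbered pairs had every pair correlated above 0.1, so the numbers were not taken as pairs, but pairing in the time course was not settled. For degrader 1 h, time course, the block gave 559 higher and 294 lower, against 428 and 73 in the fit of all groups. The share of all sites called with the block is not given here. No block could be fitted for A485 1 h, both agents 1 h and the 1 h interaction against DMSO, or for LBH589 against DMSO, whose groups share too few numbers. With members of 2000 bp or more the calls were 4.55% for both agents 15 min against A485 15 min and 0.198% for degrader by A485 interaction 15 min. edgeR on recovered reads gave 0.800% for degrader by A485 interaction 15 min, 1.07% for both agents 30 min against A485 30 min and 5.28% for degrader by A485 interaction 30 min. Without the filter on low sites limma called 0.213% for degrader by A485 interaction 15 min and 0% for LBH589 washout 1 h against 30 min. For the cause of these differences nothing was tested. Leaving out 1 library at a time gave 51.4 to 58.1% for A485 1 h, 40.2 to 42.0% for A485 15 min, 38.2 to 45.5% for A485 30 min, 48.8 to 51.5% for LBH589 1 h, 25.5 to 29.7% for LBH589 30 min, 0.108 to 18.4% for LBH589 washout 1 h against 30 min, 6.56 to 12.5% for both agents 1 h against A485 1 h, 44.9 to 46.4% for both agents 1 h against DMSO, 1.65 to 2.35% for both agents 15 min against A485 15 min, 33.2 to 34.8% for both agents 15 min against DMSO, 1.44 to 5.28% for both agents 30 min against A485 30 min, 34.2 to 39.7% for both agents 30 min against DMSO, 35.9 to 45.2% for degrader 1 h, A485 series, 21.1 to 25.4% for degrader 1 h, time course, 8.85 to 15.6% for degrader 15 min, A485 series, 19.1 to 26.4% for degrader 15 min, time course, 13.2 to 19.6% for degrader 2 h, time course, 15.5 to 23.3% for degrader 30 min, A485 series, 21.1 to 27.0% for degrader 30 min, time course, 19.8 to 41.4% for degrader by A485 interaction 1 h, 0 to 0.320% for degrader by A485 interaction 15 min, 2.51 to 14.0% for degrader by A485 interaction 30 min, 0.0533 to 0.852% for washout 1 h against degrader 2 h, 37.7 to 40.7% for washout 2 h against DMSO, 6.55 to 14.9% for washout 2 h against degrader 2 h and 0 to 8.74% for washout 30 min against degrader 2 h. A group of 2 was then a single library assumed to vary like the others.

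The difference of medians with bins by the mean of all libraries was 0.0232 for degrader 2 h, time course, 0.19 for degrader 1 h, A485 series, -0.17 for A485 1 h, -0.13 for both agents 1 h against DMSO, -0.19 for degrader by A485 interaction 1 h, 0.14 for LBH589 1 h and -0.0527 for LBH589 washout 1 h against 30 min. With bins by another experiment's DMSO it was 0.063 for degrader 2 h, time course, 0.0189 for A485 1 h, 0.00684 for both agents 1 h against DMSO, -0.0129 for both agents 1 h against A485 1 h, 0.11 for LBH589 1 h and -0.0491 for LBH589 washout 1 h against 30 min. With members of 2000 bp or more it was 0.0636 for degrader 2 h, time course, 0.0265 for washout 2 h against degrader 2 h, 0.14 for degrader 1 h, A485 series, -0.076 for A485 1 h, -0.0692 for both agents 1 h against DMSO, 0.036 for both agents 1 h against A485 1 h, -0.14 for degrader by A485 interaction 1 h and -0.0567 for LBH589 washout 1 h against 30 min. With 10 bins it was 0.0996 for degrader 2 h, time course. The sign turned in some of these for A485, both agents, both against A485, washout 2 h and LBH589 washout, and the cause was not tested. For single named sites, 588 of 636 alternative values kept their direction and call, 48 kept the direction and lost the call, and 0 turned round. The lost calls were mostly in the LBH589 washout series, then in both agents 1 h against A485 1 h and in degrader 2 h. Depth limits the sites with few reads, such as chr15:36360441-36362330, which averaged 6.80 in DMSO of the A485 series.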
